A study of Mus musculus with 35 samples.

Results

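The wells described here are single cells of unsorted mouse intestinal organoids in which at least 1 Lgr5 transcript was counted. A well was taken when it held at least 1500 counts, at least 1 count of Lgr5, and less than 1% of its counts in the enterocyte genes Apoa1, Apoa4, Fabp1, Fabp2 and Alpi together. The rule was met by 76 wells, 38 in each of 2 replicates, among 485 organoid wells with enough counts and 1053 such wells in all the tables used. They were set against Lgr5-negative wells, which met the same minimum and the same enterocyte limit in the same replicate and had no Lgr5 count. Of 197 Lgr5-negative wells, 74 were paired with 74 Lgr5-positive wells of like total count, 36 pairs in replicate 1 and 38 in replicate 2. The wells were chosen by their counts of Lgr5 and of the 5 enterocyte genes, and these values are given as descriptions with no test.

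The cells came from small intestinal crypts of a single wild-type C57BL/6 mouse, expanded as organoids in gel with EGF, Noggin and R-spondin I, then dissociated and placed by flow sorting in 96-well plates without a reporter. Both classes of well come from this culture, so they share the mouse, the genotype and the medium, and the labels give no age for the mouse. The replicates are different passages of that culture, called passage 1 (3 plates) and passage 2 (4 plates) below. The p-values therefore measure how far the difference between classes varies between passages of 1 culture, or between its plates where plates are the units. They do not measure the spread between animals. Sorted libraries stand beside them: Lgr5-positive organoid cells of an Lgr5-GFP-DTR mouse, which carries a green fluorescent and diphtheria toxin receptor cassette, Lgr5-EGFP cells taken directly from intestine, and YFP-positive cells taken from intestine 5 days after Lgr5-Cre labelling, in which a loxP-flanked stop before YFP at Rosa26 is removed. These are C57BL/6 animals by their labels, and the organoid sort is matched to its table by the table's name alone.

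Lgr5 encodes a receptor for R-spondins, proteins that strengthen Wnt signalling, and in the small intestine it marks the slender columnar cells that sit between Paneth cells at the crypt base. These cells divide, renew themselves, and give rise to absorptive enterocytes and to secretory goblet, Paneth, enteroendocrine and tuft cells. Daughters that leave the crypt base lose Lgr5, divide for a time as progenitors and then differentiate. Organoids keep this arrangement in bud-like crypt domains, so an unsorted sample holds stem cells together with their descendants.

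Counts per table of the organoid passages were 2870987 and 1641473, with 276 of 288 and 209 of 384 wells kept. The summed matched wells held 402210 and 451097 counts in the Lgr5-positive class and 398286 and 425935 in the Lgr5-negative class. Paired wells differed in total by at most a ratio of 1.41, with a median of 1.02. Median genes per well were 3482 and 4158 in Lgr5-positive and 3388 and 3803 in Lgr5-negative wells of passages 1 and 2, and spike-in RNA made up 7.75% and 8.08% against 7.02% and 8.13%. No kept well was identical to another. Transcripts of the immune and stromal lists, cell types that a crypt culture should lack, stood at 0 to 4.91 and 9.83 to 17.8 CPM in Lgr5-positive and at 2.54 to 4.67 and 23.4 to 38.1 CPM in Lgr5-negative sums, where CPM are counts in each 1000000 of the TMM-scaled total.

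Lgr5 (chromosome 10, 115450311 to 115587780, GRCm38) was counted at low numbers. Of the 76 wells 45 held 1 count, 17 held 2 or 3, and 14 held 4 or more, with 9 as the highest. The median total was 7995 counts in the wells with 1 Lgr5 count, 13244 in those with 2 or 3, and 14861 in those with 4 or more, so deeper wells held more Lgr5 counts. Just inside the rule the enterocyte share was 0.920%, 0.907% and 0.870%, and just outside it 1.198%, 1.35% and 1.51%. The shallowest wells inside held 1526, 1650 and 1670 counts, and those with Lgr5 just below the minimum 1013, 1010 and 731.

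Among wells under the enterocyte limit Lgr5 was counted in 31.7% of passage 1 (38 of 120, exact 95% binomial interval 23.5% to 40.8%) and 24.8% of passage 2 (38 of 153, 18.2% to 32.5%). In wells at or over the limit, which are rich in enterocyte transcripts and stand here for cells that should lack Lgr5, it was counted in 5.77% (9 of 156) and 7.14% (4 of 56). Those wells were shallower, with median totals of 6571 and 3776 counts against 10231 and 4893 under the limit. With every well thinned to 1500 counts, the shares were 11.7% and 9.80% under the limit, against 1.28% and 0 of 56 wells over it, a count of 0 that, taken as at most 3 wells, allows a share of up to 5.36%. Intervals cover counting error only. Per plate the share under the limit ran from 18.6% to 41.2% in passage 1 and from 5.88% to 41.4% in passage 2, with no common order by depth: in passage 2 it was lowest on the plates with the shallowest wells, while in passage 1 the plate with the shallowest wells (median 8591 counts) had the highest share. By comparison 87.8% of the sorted Lgr5-positive organoid wells (65 of 74), 74.7% and 84.5% of the Lgr5-EGFP wells, and from 25% to 42.9% of the wells per YFP plate under the limit held an Lgr5 count. Thinned to 1500 counts, the shares were 37.8% in the organoid sort, 28% and 20.2% in the Lgr5-EGFP libraries, and from 5.56% to 22.9% per YFP plate. A well without a count is therefore not shown to be a cell without the transcript: the sort left 9 of 74 such wells.

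**Figure D1:**
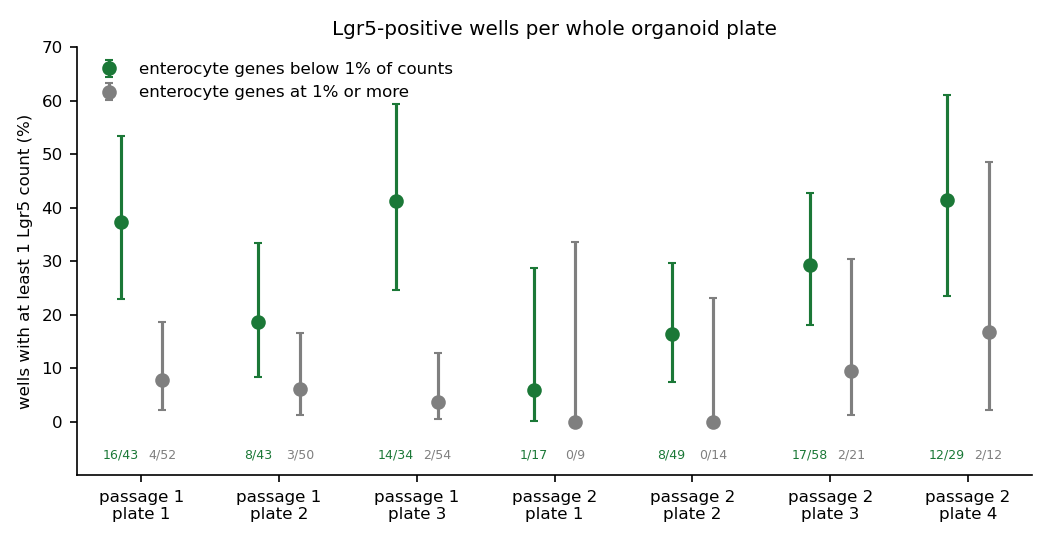
Share of wells with at least 1 Lgr5 count (y axis, percent) on each of the 7 whole organoid plates (x axis), with green points for wells under the enterocyte limit and grey points for wells at or over it; bars are exact 95% binomial intervals and the fractions give wells with Lgr5 over wells kept. Under the limit the shares run from 5.88% to 41.4%, and on each plate the green point lies above the grey one.

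The stem cell markers that the rule did not use were higher in Lgr5-positive wells. Of 28 genes of the crypt base stem cell list 16 were tested. Of these 16, 5 rose, none fell and 15 were higher. Their median log2 fold change was 0.97, against 0.00 over all 6695 genes tested. By DESeq2 2 of 16 rose, and with an enterocyte limit of 0.5% 1 of 15. None rose without passage as a block (16 tested), with thinned wells (6) or with plates of passage 2 alone (9). Increases were 4 of 8 with plates as units and 7 of 13 with at least 2 Lgr5 counts. Over all genes 1.78% were called in either direction, 0.418% higher and 1.36% lower. The list and its members were chosen with earlier results of these data known, so these counts are a description. Smoc2, a secreted matrix protein of crypt base cells (chromosome 17, 14279506 to 14404790), stood at 351 and 330 CPM in Lgr5-positive against 185 and 129 CPM in Lgr5-negative wells of passages 1 and 2. Slc12a2, a sodium, potassium and chloride cotransporter, stood at 658 and 719 CPM in Lgr5-positive against 292 and 292 CPM in Lgr5-negative wells. Clca4, named as in the files and an older symbol shared by neighbouring chloride channel regulator genes of chromosome 3, stood at 781 and 764 CPM in Lgr5-positive against 346 and 231 CPM in Lgr5-negative wells. All 3 of these markers rose.

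Smoc2 rose by log2 1.13 with SE 0.20 (edgeR adjusted p = 0.00316), Slc12a2 by log2 1.24 with SE 0.16 (adjusted p = 0.000206), and Clca4 by log2 1.45 with SE 0.17 (adjusted p = 6.69e-05). Summed by plate, Smoc2 and Clca4 were higher in Lgr5-positive wells on 6 of 6 plates with enough wells and Slc12a2 on 5 of 6. Clca4 was called in 13 of 16 alternative settings, Slc12a2 in 12 and Smoc2 in 8, with the same direction in all. Cdca7, a cell cycle gene and the fourth marker, stood at 157 and 178 CPM in Lgr5-positive against 112 and 77.1 CPM in Lgr5-negative wells and did not pass (log2 fold change 0.84, SE 0.26, edgeR adjusted p = 0.129). Per well, at least 2 of these 4 markers were counted in 29 of 36 and 24 of 38 Lgr5-positive wells, against 22 of 36 and 21 of 38 Lgr5-negative wells. All 4 were counted in 15 and 20 Lgr5-positive against 13 and 7 Lgr5-negative wells, and none in 3 and 5 against 7 and 5. The label of these wells as Lgr5 transcript-positive thus comes with higher levels of 3 other crypt base markers, which Lgr5-negative wells also held at a lower level.

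The other members of the list that rose were Phlda1 and Aqp4, with calls that held in 7 of 16 and 4 of 11 alternative settings. Phlda1, a pleckstrin homology-like protein, stood at 337 and 345 CPM in Lgr5-positive against 119 and 229 CPM in Lgr5-negative wells (log2 fold change 1.00, SE 0.22, edgeR adjusted p = 0.0195). Aqp4, a water channel, stood at 49.1 and 86.8 CPM in Lgr5-positive against 22.9 and 9.35 CPM in Lgr5-negative wells (log2 fold change 2.07, SE 0.48, edgeR adjusted p = 0.0284). Both groups stood apart in each passage, on 20 and 39 counts of Aqp4 in the Lgr5-positive sums and 9 and 4 in the Lgr5-negative ones. Ascl2, the transcription factor that keeps crypt base cells in the stem cell state, belongs to the stem and the Wnt target list and was named after its values were seen. It held 15 and 22 counts in Lgr5-positive against 0 and 7 counts in Lgr5-negative wells and did not pass (edgeR adjusted p = 0.0700). It was called when at least 2 Lgr5 counts were required and when wells rich in secretory transcripts were left out. Olfm4, a secreted glycoprotein and a marker of the same cells in the intestine, fell under the count filter with 3 and 13 counts in Lgr5-positive and 2 and 5 in Lgr5-negative wells.

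**Figure D2:**
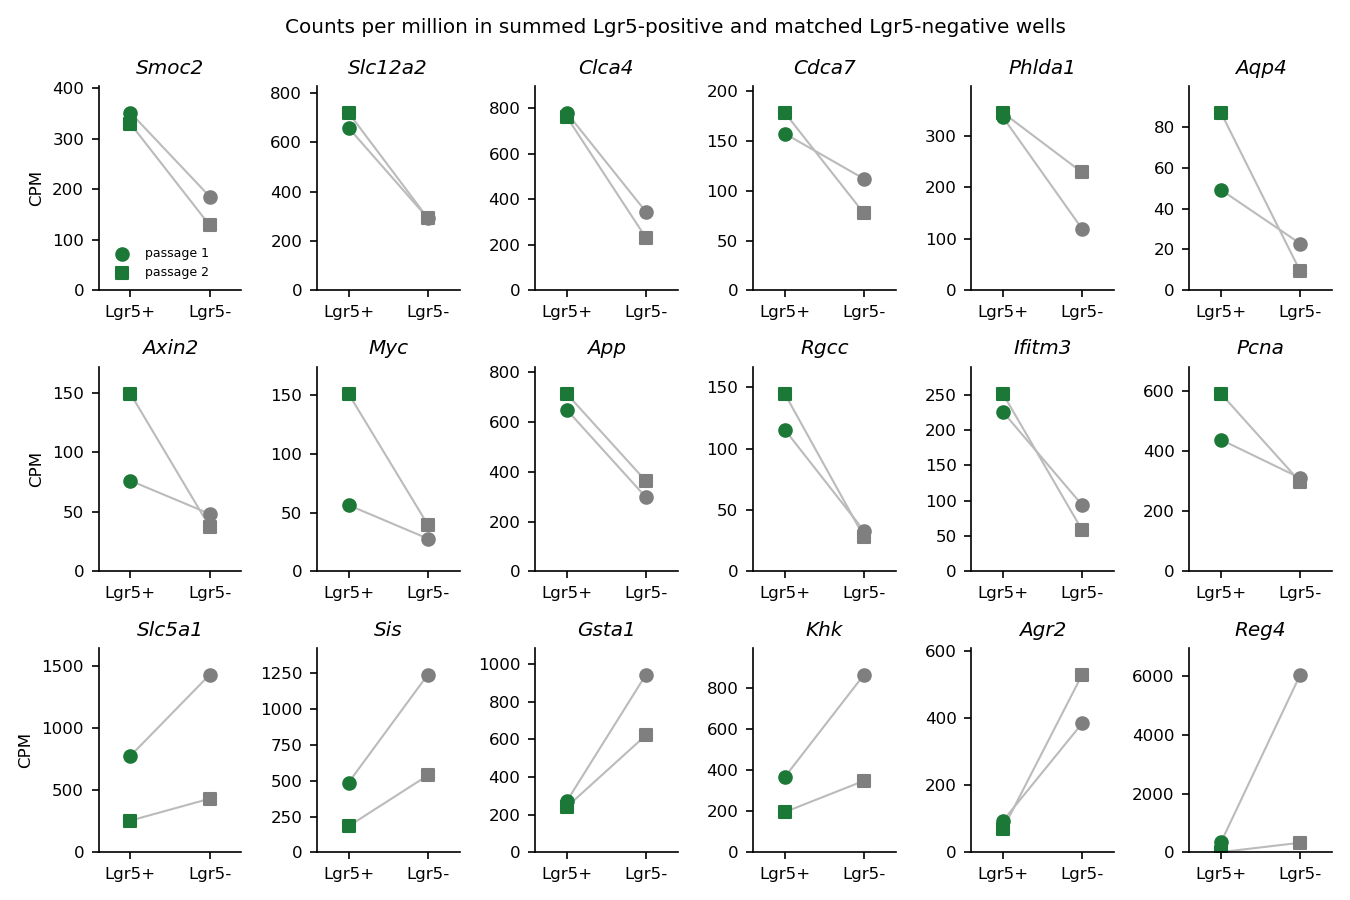
Levels of 18 genes in CPM (y axis, own scale from 0 in each panel) in summed Lgr5-positive (green, left) and matched Lgr5-negative wells (grey, right); circles are passage 1, squares passage 2, and lines join the classes of 1 passage. In the upper 2 rows each gene is higher in Lgr5-positive wells of both passages, Cdca7 without passing the test, and in the bottom row each is lower.

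Among 14 tested Wnt target genes 2 rose and 1 fell, 12 were higher, and the median log2 fold change was 0.58. Axin2, a scaffold of the complex that degrades beta-catenin and a direct target of the pathway (chromosome 11, 108920349 to 108950783), stood at 76.2 and 149 CPM in Lgr5-positive against 48.3 and 37.4 CPM in Lgr5-negative wells. It rose by log2 1.38 (SE 0.33, edgeR adjusted p = 0.0399), and 4 of 6 plates showed this direction. Myc, a transcription factor that drives growth, stood at 56.5 and 151 CPM in Lgr5-positive against 27.9 and 39.7 CPM in Lgr5-negative wells and rose by log2 1.59 (SE 0.34, edgeR adjusted p = 0.0162), higher on 6 of 6 plates. For both genes the 2 passages of Lgr5-positive wells lay farther apart than those of Lgr5-negative wells, and each call held in 5 alternative settings, of 12 for Axin2 and 11 for Myc. DESeq2 called no Wnt target, and both calls ended without the block, without matching, with matching within plates, with a minimum of 3000 counts, with an enterocyte limit of 0.5% and without wells 49 to 96 of plate IV. Efnb1, a ligand of Eph receptors found on cells that leave the crypt base, fell, with 41.8 and 55.7 CPM in Lgr5-positive against 99.1 and 133 CPM in Lgr5-negative wells (log2 fold change -1.25, SE 0.29, edgeR adjusted p = 0.0284). No member of the reserve stem cell list was called among 4 tested. Lrig1, an inhibitor of growth factor receptors, stood at 123 and 129 CPM in Lgr5-positive against 91.5 and 74.8 CPM in Lgr5-negative wells (edgeR adjusted p = 0.319). Hopx, a homeodomain protein, stood at 543 and 321 CPM in Lgr5-positive and at 536 and 290 CPM in Lgr5-negative wells (edgeR adjusted p = 0.902), so its passages differed more than its classes.

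Promoters were searched for CTTTGAA or CTTTGAT, forms of the site that TCF factors of the Wnt pathway bind. The search covered both strands of RefSeq windows on GRCm38.p6, from 250 bases before to 50 after the start. The genes wanted were Lgr5, the 4 markers and the 28 genes that rose, 30 genes in all. Of these 19 had a window, and 2 of the 19 held a match, Snrpe and Nlrp1a, while 8.65% of all 32851 windows held one. No window was available for Lgr5, Smoc2, Slc12a2, Clca4, Myc, Aqp4, Phlda1, Ehf, Pabpc1, Stmn1 and Tipin, so these were not searched. Snrpe, a core protein of the splicing machinery, rose by log2 0.79 (SE 0.18, edgeR adjusted p = 0.0282). Axin2 and Snrpe are shown as a window without and one with a match, the matched letters in capitals.
Axin2 promoter, chr11:108920099-108920398, plus strand: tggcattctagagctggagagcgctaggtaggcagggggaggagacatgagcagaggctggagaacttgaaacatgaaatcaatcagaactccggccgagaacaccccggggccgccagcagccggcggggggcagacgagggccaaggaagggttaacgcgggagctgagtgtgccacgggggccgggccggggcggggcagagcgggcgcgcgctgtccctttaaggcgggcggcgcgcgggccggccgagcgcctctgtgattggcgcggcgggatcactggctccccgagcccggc
Snrpe promoter, chr1:133610231-133610530, minus strand: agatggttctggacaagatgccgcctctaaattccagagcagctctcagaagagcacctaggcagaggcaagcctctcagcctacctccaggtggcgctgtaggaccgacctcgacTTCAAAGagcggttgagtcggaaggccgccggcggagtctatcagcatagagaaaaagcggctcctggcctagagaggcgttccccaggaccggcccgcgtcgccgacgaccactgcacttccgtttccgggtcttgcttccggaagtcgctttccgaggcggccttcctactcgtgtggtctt
A match describes these letters in this window and is not shown to be a bound site.

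Genes of DNA replication were higher as well. All 20 tested S phase genes were higher in Lgr5-positive wells, 3 of them rose, and their median log2 fold change was 0.75. Pcna, the sliding clamp of DNA polymerase, stood at 437 and 590 CPM in Lgr5-positive against 310 and 297 CPM in Lgr5-negative wells (log2 fold change 0.75, SE 0.17, edgeR adjusted p = 0.0284). Mcm6, a subunit of the replicative helicase, stood at 179 and 234 CPM in Lgr5-positive against 96.6 and 115 CPM in Lgr5-negative wells (log2 fold change 0.97, SE 0.23, edgeR adjusted p = 0.0360). Dut, which removes dUTP, also rose, by log2 0.81 (SE 0.20, edgeR adjusted p = 0.0465), and Tipin, a replication fork protein, and Hat1, which acetylates new histone H4, were among the 12 largest increases. The calls of Tipin and Hat1 held in 4 of 12 and 4 of 11 alternative settings. Of 20 G2 and M phase genes none was called, with 5 at an unadjusted p under 0.05, none by DESeq2 and a median log2 fold change of 0.27. Mki67, a marker of dividing cells, stood at 142 and 171 CPM in Lgr5-positive and 145 and 119 CPM in Lgr5-negative wells (edgeR adjusted p = 0.719). DESeq2 called none of the 20 S phase genes. The calls of Pcna and Mcm6 held in 5 of 16 and 5 of 15 alternative settings and that of Dut in 4 of 16. All 3 ended with all Lgr5-negative wells unmatched, without the block, with a minimum of 3000 counts, with an enterocyte limit of 0.5%, and without wells above 20000 counts, a setting added after seeing the data, and Dut reversed to -0.13 with thinned wells. Of 20 ribosome biogenesis genes none was called and 17 were higher, with a median of 0.33, 5 at an unadjusted p under 0.05 and none called by DESeq2.

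The increases with the largest fold change outside these lists were Hunk, Tuba1a and Rgcc. Hunk, a protein kinase, stood at 41.8 and 71.3 CPM in Lgr5-positive against 5.08 and 14.0 CPM in Lgr5-negative wells (log2 fold change 2.53, SE 0.48, edgeR adjusted p = 0.00755). It was counted in 14 of 36 and 17 of 38 Lgr5-positive wells, against 2 of 36 and 4 of 38 Lgr5-negative wells. Rgcc, a regulator of the cell cycle, stood at 115 and 145 CPM in Lgr5-positive against 33.0 and 28.0 CPM in Lgr5-negative wells (log2 fold change 2.09, SE 0.32, edgeR adjusted p = 0.000848), higher on 6 of 6 plates. Tuba1a, an alpha-tubulin, rose by log2 2.28 (SE 0.40, edgeR adjusted p = 0.00354), but its passages were far apart, with 241 and 22.3 CPM in Lgr5-positive against 35.6 and 14.0 CPM in Lgr5-negative wells. Ifitm3, an interferon-inducible membrane protein, stood at 226 and 252 CPM in Lgr5-positive against 94.0 and 58.4 CPM in Lgr5-negative wells (log2 fold change 1.67, SE 0.26, edgeR adjusted p = 0.000948). Its call held in 12 of 15 alternative settings, that of Rgcc in 9 of 14, that of Hunk in 5 of 10 and that of Tuba1a in 5 of 9. Edn1, the vasoactive peptide endothelin, stood at 56.5 and 203 CPM in Lgr5-positive against 17.8 and 74.8 CPM in Lgr5-negative wells (log2 fold change 1.49, SE 0.30, edgeR adjusted p = 0.0101). App, the amyloid precursor protein, named after its values were seen, rose by log2 1.05 (SE 0.16, edgeR adjusted p = 0.000793) and stood at 649 and 713 CPM in Lgr5-positive against 297 and 362 CPM in Lgr5-negative wells.

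Enterocyte genes outside the rule were lower in Lgr5-positive wells. Of 25 tested 10 fell and none rose, 24 were lower, and the median log2 fold change was -0.93. By DESeq2 3 of 25 fell, and none fell without the block (25 tested), with thinned wells (11) or with plates of passage 2 alone (15). Decreases were 8 of 15 with plates as units and 10 of 18 with at least 2 Lgr5 counts. Slc5a1, which takes up glucose, stood at 776 and 256.1 CPM in Lgr5-positive against 1430 and 432 CPM in Lgr5-negative wells (log2 fold change -0.82, SE 0.14, edgeR adjusted p = 0.00356). Sis, the brush border sucrase-isomaltase, stood at 486 and 183 CPM in Lgr5-positive against 1240 and 538 CPM in Lgr5-negative wells (log2 fold change -1.44, SE 0.16, edgeR adjusted p = 2.74e-05). Gsta1, a detoxifying glutathione transferase, stood at 270 and 241 CPM in Lgr5-positive against 943 and 622 CPM in Lgr5-negative wells and was lower on 6 of 6 plates (log2 fold change -1.58, SE 0.17, edgeR adjusted p = 2.07e-05). In each passage the levels of these genes were lower in Lgr5-positive wells, while Slc5a1 in Lgr5-negative wells of passage 2 lay below its level in Lgr5-positive wells of passage 1. Others that fell were Khk (ketohexokinase), Dgat1 (triglyceride synthesis), Slc2a5 (fructose uptake), Rbp2 (retinol binding), Enpep (a brush border peptidase) and the transcription factor gene Creb3l3. The call of Gsta1 held in 12 of 16 alternative settings, that of Khk in 11, Sis in 10, Dgat1 in 8 and Slc5a1 in 5 of 16. Those of Rbp2 and Creb3l3 held in 6 of 14, that of Slc2a5 in 4 of 13 and that of Enpep in 2 of 8.

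The rule itself limits enterocyte genes in both classes, and within the limit the Lgr5-negative wells held more of them. The 5 genes of the rule made up 0.131% and 0.154% of the summed counts in Lgr5-positive against 0.330% and 0.193% in Lgr5-negative wells. With the limit at 0.5% the enterocyte list had 2 called decreases among 24 tested. Per well, the enterocyte list outside the rule had medians of 0.599% and 0.335% of counts in Lgr5-positive against 0.842% and 0.4995% in Lgr5-negative wells, with over 1% in 9 and 6 against 16 and 12 wells. The 2 Lgr5-positive wells too deep to be paired, with 64305 and 72306 counts and 1 Lgr5 count each, held 5.01% and 3.80% of counts in this list.

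**Figure D3:**
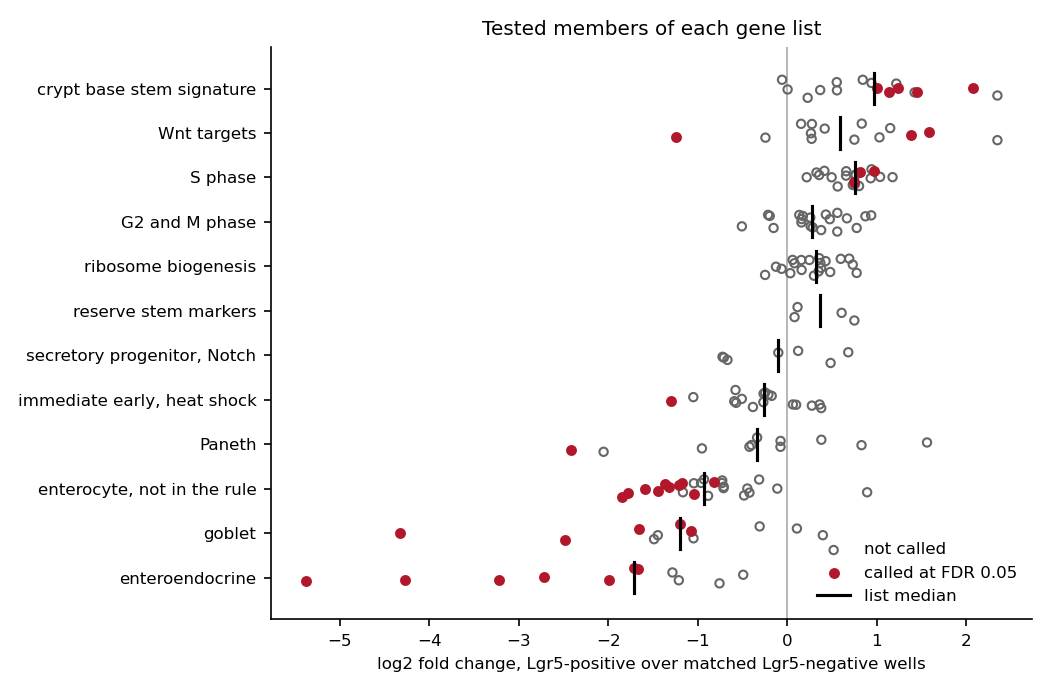
Log2 fold change of Lgr5-positive over matched Lgr5-negative wells (x axis) for each tested member of 12 gene lists (y axis); filled red points were called at a false discovery rate of 0.05, open points were not, and black bars are list medians. The stem, Wnt target and S phase medians lie at 0.97, 0.58 and 0.75, and those of the enterocyte, goblet and enteroendocrine lists at -0.93, -1.19 and -1.72.

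Secretory genes had the largest decreases, and a few wells held most of their counts. Of 11 goblet genes 5 fell, of 11 enteroendocrine genes 7 fell, and of 11 Paneth genes 1 fell, with medians of -1.19, -1.72 and -0.34 and no increase. Zg16, a goblet cell lectin, held 0 and 45 counts in Lgr5-positive against 7 and 844 counts in Lgr5-negative wells, and 1 well gave 88.2% of the Lgr5-negative counts of passage 2. Agr2, a protein disulfide isomerase needed for mucus, stood at 93.4 and 69.0 CPM in Lgr5-positive against 384 and 528 CPM in Lgr5-negative wells (log2 fold change -2.48, SE 0.23, edgeR adjusted p = 2.96e-06), where 1 well of each passage gave 89.4% and 45.1% of its counts. Tff3, Spink4 and S100a6 fell too, but with plates of passage 1 alone none of 5 tested goblet genes fell, and Tff3 and Spink4 stood at log2 fold changes of 0.46 and 0.75. Spink4 and S100a6 were lower in Lgr5-positive wells on 3 of 6 plates. Spink4 was positive after thinning (0.27) and without wells rich in secretory transcripts (0.37), wells that its own list helped to choose. Reg4, a secreted lectin of secretory cells, stood at 341 and 11.1 CPM in Lgr5-positive against 6045 and 330 CPM in Lgr5-negative wells (log2 fold change -4.27, SE 0.15, edgeR adjusted p = 4.81e-12). Of its Lgr5-negative counts 47.8% and 90.8% came from 1 well in each passage. Nupr1, a stress-induced nuclear protein, was the Paneth list member that fell.

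The enteroendocrine decreases other than that of Reg4, a member of the same list, rest on passage 1. Afp, Chga, Tac1, Tph1 and Fev had no count in either class of passage 2. Chgb, a granin of hormone granules, stood at 1813 and 0 CPM in Lgr5-positive against 5768 and 2.34 CPM in Lgr5-negative wells (log2 fold change -1.67, SE 0.15, edgeR adjusted p = 2.96e-06). In passage 1 it was counted in 28 of 36 Lgr5-positive and 29 of 36 Lgr5-negative wells, so nearly equal numbers of wells held it, and 1 well gave 42.1% of its counts in Lgr5-positive and 39.1% in Lgr5-negative wells. Afp, alpha-fetoprotein, had 10 counts in 7 Lgr5-positive wells against 418 counts in 6 Lgr5-negative wells, with 96.4% of the Lgr5-negative counts in 1 well. Among all 91 decreases, 16 had over 50% of the Lgr5-negative counts in 1 well, against none of the 28 increases in the Lgr5-positive class. All 28 increases and 85 of the decreases had the same direction in both passages. The calls were made from these same passages, so this count is a description and no separate support.

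Some Lgr5-positive wells were rich in secretory transcripts. The goblet, Paneth, enteroendocrine and tuft lists together made up over 1% of counts in 8 of 36 and 2 of 38 Lgr5-positive wells, against 7 of 36 and 4 of 38 Lgr5-negative wells. The highest Lgr5-positive wells held 7.60% and 27.2% of counts in the Paneth list, and the highest Lgr5-negative wells 0.655% and 23.8%. Defa24, a Paneth cell defensin with closely related copies that make its single-gene count uncertain, stood at 941 and 2416 CPM in Lgr5-positive against 5.08 and 3431 CPM in Lgr5-negative wells (edgeR adjusted p = 0.423), with 95.8% and 76.5% of the Lgr5-positive counts in 1 well each. Without all wells over 1%, a setting added after seeing the data, 77 genes rose and 190 fell among 6173 tested. The stem list then had 7 increases among 13 tested, the S phase list 6 among 20 and the enterocyte list 19 decreases among 26. Goblet and enteroendocrine decreases were 1 of 7 and 0 of 4 tested there, Agr2 stood at a log2 fold change of 0.21 and Reg4 at -0.61. Genes of these lists, Agr2 and Reg4 among them, helped to choose the wells left out, so these values are a description and no test.

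Of 7 tested secretory progenitor and Notch genes none was called by edgeR or DESeq2, with 1 at an unadjusted p under 0.05 and a median of -0.10. Hes1, a Notch target that holds cells out of the secretory lineage, stood at 172 and 334 CPM in Lgr5-positive against 155 and 199 CPM in Lgr5-negative wells (edgeR adjusted p = 0.319). Of 17 immediate early and heat shock genes, which respond to handling, Atf3 alone was called (6 had an unadjusted p under 0.05, and 8 of 17 fell with at least 2 Lgr5 counts). It fell, with 46.7 and 149 CPM in Lgr5-positive against 216 and 245 CPM in Lgr5-negative wells (log2 fold change -1.30, SE 0.28, edgeR adjusted p = 0.0211). No tuft gene passed the count filter, and the list stood at 329 and 4.45 CPM in Lgr5-positive against 17.8 and 0 CPM in Lgr5-negative wells. The 329 CPM rest on few wells: in passage 1, 30 of 36 Lgr5-positive and 32 of 36 Lgr5-negative wells held no count of the list. The highest Lgr5-positive well there held 0.883% of its counts in it, and 1 well gave 71.4% of the Lgr5-positive counts of the tuft gene Lrmp.

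The stem, S phase and enterocyte lists were farthest from the Lgr5-negative wells in wells with 2 or more Lgr5 counts. Among matched wells of passages 1 and 2, the stem list made up 0.165% and 0.165% of summed counts with no Lgr5 count, 0.267% and 0.223% with 1, and 0.399% and 0.411% with 2 or more. S phase genes made up 0.182% and 0.208%, then 0.188% and 0.311%, then 0.395% and 0.380%. The enterocyte list outside the rule made up 1.93% and 0.889%, then 1.07% and 0.888%, then 0.550% and 0.317%, so in passage 2 wells with 1 Lgr5 count matched those with none. Per 1000000 unscaled counts, Clca4 stood at 341 and 232 in wells without Lgr5, 564 and 278 with 1 count, and 1054 and 1060 with 2 or more. Not all values followed this order: in passage 1 Axin2 stood at 47.7, 87.9 and 64.5 per 1000000 unscaled counts with 0, 1 and 2 or more Lgr5 counts, the G2 and M phase list at 0.148%, 0.206% and 0.155%, and the Paneth list at 0.057%, 0.376% and 0.025%. Wells with 2 or more counts were the deeper ones, with median totals of 12078 and 15521 counts against 8395 and 6475 with 1 and 9420 and 11448 with none, and the part of depth in this order was not tested. Requiring at least 2 Lgr5 counts, with matching redone, gave 64 increases and 168 decreases among 4393 genes tested.

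**Figure D4:**
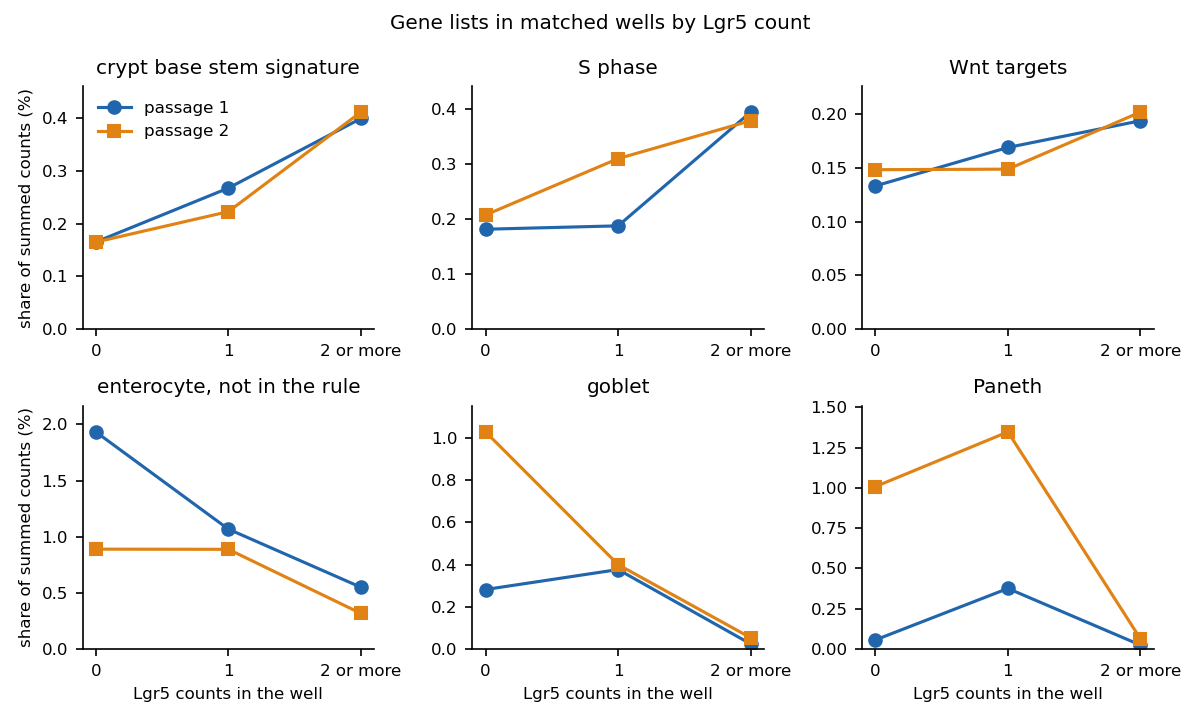
Share of summed counts in 6 gene lists (y axis, percent, from 0) for matched wells with 0, 1 or at least 2 Lgr5 counts (x axis); circles are passage 1 and squares passage 2. The stem list is highest in wells with at least 2 Lgr5 counts (0.399% and 0.411%), where the enterocyte list is lowest (0.550% and 0.317%) and the Paneth list stands at 0.025% and 0.063%.

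Per well the classes overlapped widely. The stem list had medians of 0.264% and 0.263% of counts in Lgr5-positive wells of passages 1 and 2, against 0.1504% and 0.143% in Lgr5-negative wells. Its range was 0.047% to 0.584% and 0 to 0.910% in Lgr5-positive and 0.048% to 0.549% and 0 to 0.342% in Lgr5-negative wells. The S phase list had medians of 0.177% and 0.252% in Lgr5-positive against 0.083% and 0.094% in Lgr5-negative wells, and the middle 50% of wells overlapped in both passages.

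**Figure D5:**
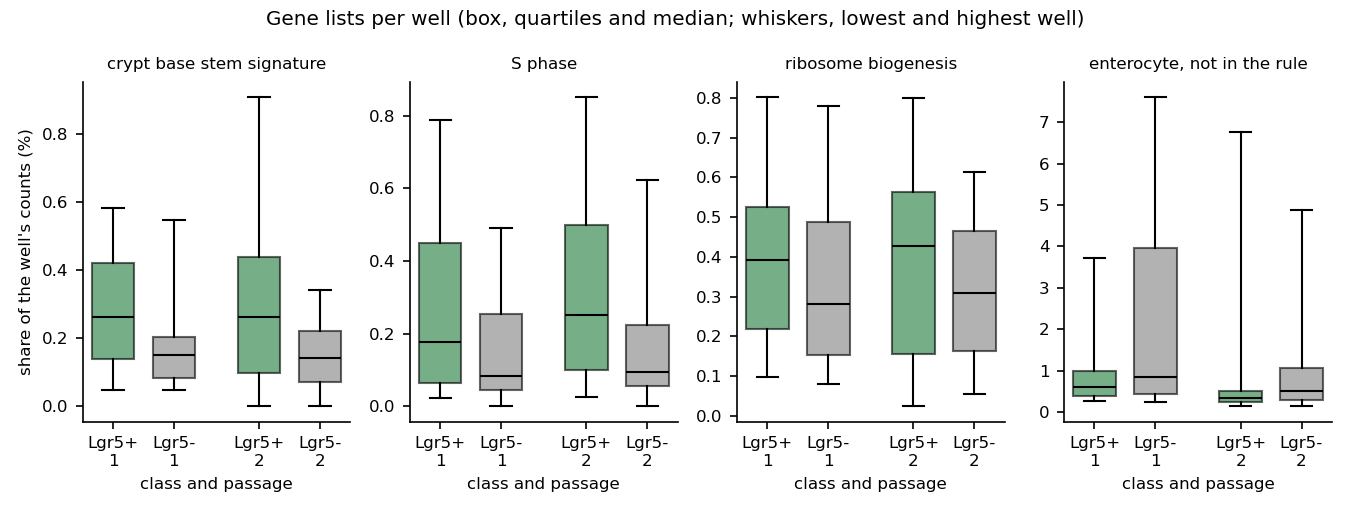
Share of a well's counts in 4 gene lists (y axis, percent, own scale in each panel) for Lgr5-positive (green) and matched Lgr5-negative wells (grey) of passages 1 and 2 (x axis); boxes are quartiles with the median, whiskers the lowest and highest well. The stem and S phase medians are higher in Lgr5-positive wells of both passages, and the ranges overlap in every panel.

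Beside the sorted libraries, the Lgr5-positive wells of whole organoids held less of the stem list. It made up 0.290% and 0.339% of the counts of all 76 wells, 0.502% in the sorted Lgr5-positive organoid library, 0.547% and 0.473% in the Lgr5-EGFP libraries, and 0.165% in both sums of matched Lgr5-negative wells. The passage 1 values of Lgr5-positive wells in this paragraph include the 2 wells too deep to be paired. These held 64305 and 72306 of the 538821 counts, and 0.166% and 0.191% of their counts were in the stem list. Ascl2 stood at 27.8 and 48.8 per 1000000 unscaled counts in the Lgr5-positive wells and at 157 in the organoid sort, and Axin2 at 57.5 and 149 against 240. Igfbp4, an insulin-like growth factor binding protein, stood at 0 and 2.22 in the Lgr5-positive wells and at 175 in the organoid sort. Edn1 was at 53.8 and 202 in the Lgr5-positive wells and at 16.6 in the sort, and Pcna at 371 and 587 against 391. These are levels of single libraries from other mice and were not tested.

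Among the 6695 genes tested 28 rose and 91 fell, called by edgeR's quasi-likelihood test with passage as a block at a Benjamini-Hochberg false discovery rate of 0.05, and 880 had an unadjusted p under 0.05. With plates as units, no gene of 2536 was called for a change that differed between passages (edgeR, 0% of genes, with 100 at an unadjusted p under 0.05), while without the filter on low counts 23 of 13539 were called. DESeq2 was not run on that difference. The test leaves 1 residual degree of freedom. Without the block 0 genes were called (419 at an unadjusted p under 0.05), with thinned wells 0 of 1041 (89 unadjusted), and by DESeq2 2 rose and 13 fell. With plates as units, 15 of the 20 increases tested there and 40 of the 58 decreases were called again. The matched classes drew on the plates in different proportions, with 8 Lgr5-positive against 15 Lgr5-negative wells on plate 2 of passage 1 and 12 against 6 on plate 4 of passage 2, and matching within plates gave 6 increases and 31 decreases.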

How the data were processed

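The deposited values are estimated counts, which the authors made per gene and well from reads that carry a 4-base molecular barcode, per the labels' protocols. Per the submitters' processing notes the aligner was BWA 0.6.2-r126 and the genome mm10 (GRCm38). The sources used here do not give how reads were counted or on which annotation. Values were rounded, and spike-in RNAs and the dsRed entry were left out. Wells were classed by the rule, paired 1:1 within a passage on the log of total counts (largest ratio 1.5), and summed per class and passage. Sums were tested with edgeR 4.0.16 in R 4.3.3 (quasi-likelihood, TMM, filterByExpr, passage as a block, false discovery rate 0.05), and DESeq2 1.42.0 was an alternative. The scripts were tested on simulated data. The classes of 1 passage come from the same plates, and their deviations from the class means correlated over genes (Pearson r = 0.471), so passage was taken as a pair. Standard errors are the log2 fold change over the root of the F statistic.

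The members, the 15 gene lists, the markers and the rule for named genes were chosen with earlier results of these data known. Named genes were the markers, the 12 largest called changes in each direction with at least 50 CPM in the higher class and 1 direction in both passages, and, from each list, at most 4 genes ranked by mean level; values are given for part of them. Every other gene named, such as Efnb1, Sis, Gsta1, Khk, Ascl2 and Atf3, was chosen after its values were seen. Coordinates are from GENCODE M21 on GRCm38. Intervals are exact (Clopper-Pearson) at 95%. Plates of Reg4-positive cells, the pool-and-split control and the control library were not used here. Python 3.11.15 with numpy 2.4.6, pandas 2.3.3 and scipy 1.17.1 was used. Some results are not reported here.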

Additional observations from a re-analysis of the deposited data

How the results depend on the processing

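The counts of 28 increases and 91 decreases depend on the settings, and where a setting moved them the cause was not tested. Increases and decreases numbered 2 and 13 with DESeq2, 7 and 21 with all Lgr5-negative wells and no matching, 6 and 31 with matching within plates, and 6 and 34 with a well minimum of 3000 counts. They numbered 64 and 168 with at least 2 Lgr5 counts, 2 and 14 with an enterocyte limit of 0.5%, 10 and 37 without wells 49 to 96 of plate IV, and 0 and 0 with wells thinned to 1500 counts, where 1041 genes could be tested and 89 had an unadjusted p under 0.05. Decreases numbered 46 with plates as units, where 2536 genes were tested. In settings added after seeing the data, decreases numbered 59 without wells above 20000 counts, and increases and decreases 77 and 190 without wells rich in secretory transcripts. Leaving out each passage gave 2 to 14 increases and 7 to 28 decreases with plates as units. Without the replicate block 0 and 0 genes were called by edgeR, with 419 at an unadjusted p under 0.05, against 2 and 13 with DESeq2, which kept the block. Genes whose change differed between passages numbered 23 without the filter on low counts. The shares of wells with Lgr5 were 11.7% and 9.80% after thinning.

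Some log2 fold changes turned sign. Without wells rich in secretory transcripts, which these genes helped to choose, Agr2 stood at 0.21 and Spink4 at 0.37. After thinning Spink4 stood at 0.27 and Dut at -0.13. With plates of passage 1 alone Spink4 stood at 0.75, Tff3 at 0.46 and Mki67 at -0.35. With at least 2 Lgr5 counts Mki67 stood at -0.052 and Defa24 at -4.99, and Defa24 stood at -0.036 without the block. Only a part of the 119 called genes was followed through the alternatives. Among the values of these genes, 350 kept the call, 305 kept the direction alone and 6 reversed. With 1 or 2 Lgr5 counts in most wells, depth limits which cells are found, and the tests have 1 residual degree of freedom.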

Other observations

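Gene families of detoxification and metal handling were grouped by symbol after the calls were seen, so their counts are a description, and Gsta1, Cyp3a11 and Cyp2c29 among them also stand in the enterocyte list. Of 21 tested glutathione transferase genes (Gst and Mgst) 7 fell and none rose, and of 16 cytochrome P450 genes (Cyp) 6 fell and none rose, with median log2 fold changes of -0.37 and -0.73 against 1.36% of all genes called lower. Gsta4, which clears lipid peroxidation products, stood at 354 and 452 CPM in Lgr5-positive against 683 and 827 CPM in Lgr5-negative wells and was lower on 6 of 6 plates (log2 fold change -0.91, SE 0.15, edgeR adjusted p = 0.00220). Cyp4f14, a fatty acid hydroxylase, stood at 123 and 102 CPM in Lgr5-positive against 498 and 266 CPM in Lgr5-negative wells (log2 fold change -1.71, SE 0.21, edgeR adjusted p = 0.000117). Both tested metallothioneins fell, Mt1 with 1533 and 2303 CPM in Lgr5-positive against 2838 and 3730 CPM in Lgr5-negative wells (log2 fold change -0.79, SE 0.09, edgeR adjusted p = 6.35e-05).

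Other epithelial genes were also called. Krt19, a keratin, stood at 1039 and 962 CPM in Lgr5-positive against 1430 and 1858 CPM in Lgr5-negative wells (log2 fold change -0.70, SE 0.13, edgeR adjusted p = 0.00513). Ehf, an epithelial transcription factor of the Ets family, rose, with 135 and 122 CPM in Lgr5-positive against 53.4 and 63.1 CPM in Lgr5-negative wells (log2 fold change 1.14, SE 0.28, edgeR adjusted p = 0.0409). Stmn1, a microtubule regulator of dividing cells, rose by log2 0.90 (SE 0.17, edgeR adjusted p = 0.00778), with 398 and 481 CPM in Lgr5-positive against 234 and 238 CPM in Lgr5-negative wells. These genes were also named after their values were seen.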
